A study of Homo sapiens with 3 samples.

Results

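Keratins are the intermediate filament proteins of epithelial cells, and 10 of their genes, KRT7, KRT8, KRT14, KRT15, KRT17, KRT18, KRT19, KRT23, KRT80 and KRT81, were described in Huh7 cells across 3 arrays. They belong to 19735 genes that were named on the array. The 10 genes were chosen by measured values of these same arrays, namely their signal and their differences between arrays in earlier results, so that every value below describes the arrays and no test was made of it. The genes were found by the transcript accession of each probe, which gave 13 probes. Of the 10 genes, 7 had 1 probe and 3 (KRT8, KRT18 and KRT23) had several, and every one of these probes was printed as a single spot.

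Keratin filaments are built from pairs of a type I and a type II chain, and each type of epithelium uses its own pairs. Hepatocytes use KRT8 (type II) and KRT18 (type I) alone. Bile duct cells and hepatic progenitor cells add KRT7 (type II) and KRT19 (type I), while KRT14 (type I, with its partner KRT5), KRT15 and KRT17 belong to the basal layer of stratified epithelium or to activated and injured epithelium. In liver pathology these chains are used to tell hepatocytic from biliary or progenitor differentiation.

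The study asked how chlorogenic acid (CA), a polyphenol of coffee and other plants, changed gene expression in Huh7 cells, an established line from a human hepatocellular carcinoma. The cells were left untreated or were given CA for 24 h at 50 μM (CA50 below) or at 100 μM (CA100 below). Cy3-labelled RNA from every group went onto 1 Agilent array of the one-colour kind, and with 1 array per group the number of arrays limits the precision of every difference. No replicate was measured, so no difference was checked against a spread between cultures, and in bulk RNA fewer cells of a type and less RNA per cell cannot be told apart.

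The signal of a spot is given in intensity units, and a level is its log2 value minus that of the 75th percentile of the array, which was 1059, 1207 and 1249 intensity units for the untreated, CA50 and CA100 groups. The percentage of gene spots well above background was between 70.4% and 71.1%. A log2 difference of 1 is a 2-fold difference, which is the size counted below. The untreated array enters both comparisons with it and the CA50 array enters both the first and the third comparison, so the 3 differences of a probe are not independent. On the CA100 array, 5.29% of the gene spots lay in disturbed areas, nearly all in a diagonal band, in which probes that were dim on the other arrays were bright. Of 39 keratin spots, 1 (KRT19 on the CA100 array) lay in that band. The labelled cell type showed in its markers. ALB (albumin) had 109428 intensity units without treatment and AFP (alpha-fetoprotein, a product of fetal liver and hepatoma) had 95490.3, while the probe of HNF4A, a hepatocyte transcription factor, was well above background on the CA50 array alone.

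**Figure D1:**
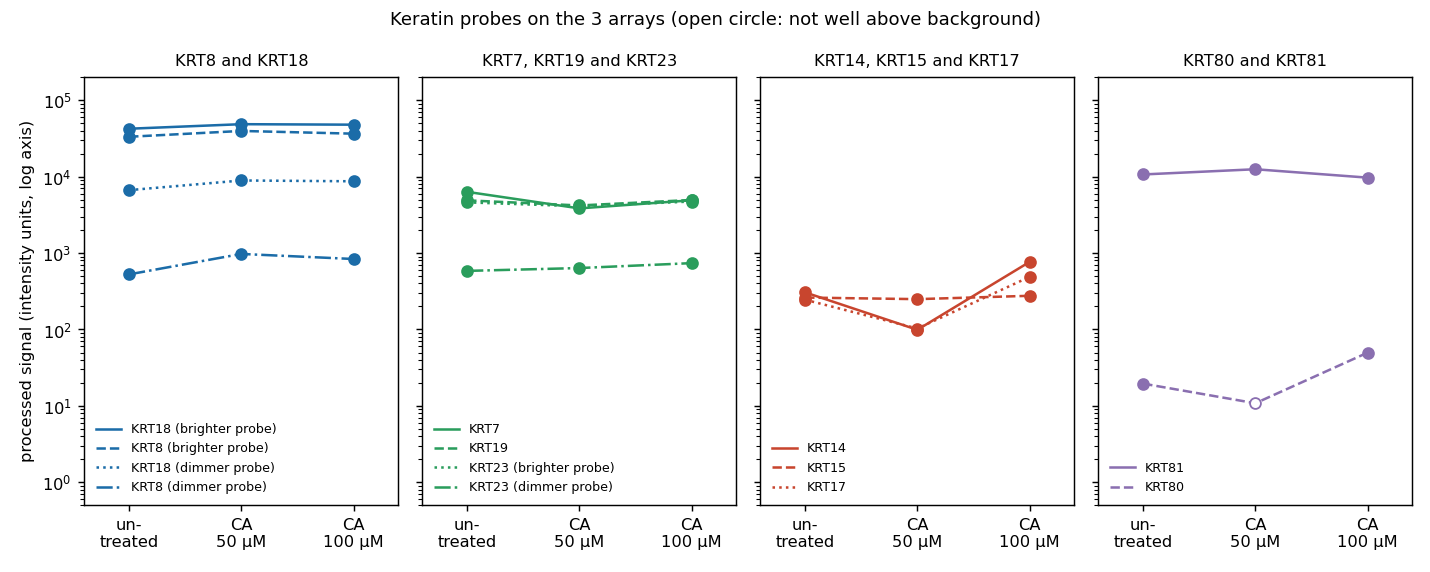
Processed signal of the 13 keratin probes (log axis, intensity units) on the untreated, CA50 and CA100 arrays, with 1 line per probe and an open circle for a spot that was not well above background. KRT14 and KRT17 were lowest at CA50 (99.1 and 103 intensity units) and highest at CA100 (765 and 487), and the dimmer KRT8 probe was highest at CA50 (974 intensity units, 526 without treatment).

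Across the 10 genes, the brightest probes of the hepatocyte pair KRT8 and KRT18 differed little from untreated, KRT7 was lower at both doses of CA, and KRT14 and KRT17 were lower at CA50 and higher at CA100. Among the 13 probes, all were well above background without treatment and at CA100, and 12 were at CA50, the exception being KRT80. At CA50 against untreated, 0 of 12 keratin probes were at least 2-fold higher, beside 0.614% of 22471 probes of all genes, and 2 (KRT14 and KRT17) were at least 2-fold lower, beside 0.458%. At CA100 against untreated, 2 of 13 (KRT14 and KRT80) were higher, beside 0.638% of 22267 probes, and 0 were lower, beside 0.256%. Between the doses, 2 of 12 (KRT14 and KRT17) were higher at CA100 than at CA50, beside 0.681% of 22453 probes, and 0 were lower, beside 0.174%. Because the genes were chosen with these differences known, nothing is read from the counts against those percentages.

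The type II keratin KRT8 had a bright probe with 33190, 39552 and 36431 intensity units on the untreated, CA50 and CA100 arrays. After scaling, the log2 difference from untreated was 0.06 at CA50 and -0.10 at CA100, and its untreated spot carried a background outlier flag. The second probe of KRT8 was dimmer, with 526, 974 and 836 intensity units, and its differences were 0.70 and 0.43. The probes of KRT8 therefore lay 0.63 apart at CA50. Among 2774 genes with exactly 2 probes compared there, the median gap was 0.23, and 10.96% had a gap as large as that of KRT8. Which probe followed the KRT8 transcript was not tested.

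KRT18, the type I partner of KRT8, had a bright probe with 42276, 48479 and 47763 intensity units, which amounts to log2 differences of 0.01 at CA50 and -0.06 at CA100. Its dimmer probe had 6650.15, 8896 and 8684 intensity units and differences of 0.23 and 0.15. Its probes lay 0.22 apart at CA50, and 51.7% of the genes with 2 probes had a gap at least as large. On their brightest probes, the difference of KRT18 minus that of KRT8 was -0.06 at CA50 and 0.04 at CA100, and both values are close to the SD of 0.05 between repeated spots of probes as bright as these. At CA100 the bright probes of both genes changed sign under some other scalings, and at CA50 that of KRT18 did. The bright KRT8 probe kept its sign at CA50, between 0.01 and 0.23 under the alternatives that measured it. Its main value of 0.06 there is close to that SD, so the bright probes give no direction against untreated for either gene. The dimmer probes of both genes kept a positive difference from untreated at both doses under every alternative. Between the doses, all 4 probes were lower at CA100, by -0.27 to -0.07, and kept that sign. Of all probes, 47.8% were higher at CA100 than at CA50.

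KRT7, the type II keratin of bile ducts and other simple glandular epithelium, had 6317 intensity units without treatment, 3839 at CA50 and 4897 at CA100. It was the lowest of the bright keratin probes relative to untreated, by a log2 difference of -0.91 (1.88-fold) at CA50 and of -0.61 (1.52-fold) at CA100. At CA50, 135 of 22471 probes were at least as low. These differences kept their sign under all 10 alternative ways of processing, between -0.96 and -0.82 at CA50 and between -0.63 and -0.55 at CA100.

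KRT19, the smallest keratin and a marker of bile ducts and of progenitor-like liver tumors, had 4889, 4192 and 4946 intensity units on the untreated, CA50 and CA100 arrays. Its log2 difference was -0.41 at CA50, closer to 0 than that of KRT7, and -0.22 at CA100. The CA100 value came from the spot inside the bright band, where 19 of 29 dim spots around it were bright, and the part of the band in it was not tested.

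KRT23, a type I keratin found in gastrointestinal and hepatobiliary cells, had a brighter probe with 4604, 4091 and 4719 intensity units. Its log2 differences were -0.36 and -0.20 at the doses of 50 and 100 μM. The dimmer probe of KRT23 had 584, 636 and 738 intensity units and differences of -0.07 and 0.10, and its probes lay 0.29 apart at CA50. KRT7, KRT19 and KRT23 had a median of -0.41 at CA50 and -0.22 at CA100, while KRT8 and KRT18 had medians of 0.04 and -0.08. The median over all probes was -0.01 at CA50 and -0.02 at CA100. Among probes near the level of KRT7, KRT19 and the brighter KRT23 probe it was -0.07 and -0.04. Among the brightest probes, where the bright probes of KRT8 and KRT18 lay, it was -0.16 and -0.11.

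KRT14, the type I keratin of dividing basal cells, had 306 intensity units without treatment, 99.1 at CA50 and 765 at CA100. The CA50 signal was the lowest and the CA100 signal the highest of the 3. KRT14 was 3.52-fold lower at CA50 (log2 difference -1.81) and 2.12-fold higher at CA100 (1.09) than without treatment, and the doses lay 7.47-fold apart (2.90). In the first comparison 12 of 22471 probes were at least as low, and between the doses 6 of 22453 were at least as high. Against untreated at CA100, 105 of 22267 probes were at least as high, and outside disturbed areas 31 of 20692 were. With normexp background correction the CA100 difference was 0.92, under 2-fold.

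KRT17, a type I keratin induced in wounded epithelium and in many carcinomas, had 245 intensity units without treatment, 103 at CA50 and 487 at CA100. The order of the arrays was that of KRT14. KRT17 was 2.71-fold lower at CA50 (-1.44) and 1.69-fold higher at CA100 (0.75), and 4.57-fold higher at the higher dose than at the lower (2.19). At CA50 27 of 22471 probes were at least as low, and between the doses 14 of 22453 were at least as high. The spots of KRT14 and KRT17 lay apart on the array and outside the bright band. Probes of their brightness that were printed 10 times had a median SD of 0.08 between spots at CA50, which covers the spots of 1 hybridisation and not the spread between cultures.

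KRT15, a basal and stem cell keratin of the same chromosomal cluster, had 262, 250 and 276 intensity units on the untreated, CA50 and CA100 arrays. Its log2 differences were -0.26 at CA50 and -0.16 at CA100, so the low and high values of KRT14 and KRT17 were not seen for this gene of the basal group. For KRT14, KRT15 and KRT17 the median was -1.44 at CA50, 0.75 at CA100 and 2.19 between the doses.

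**Figure D2:**
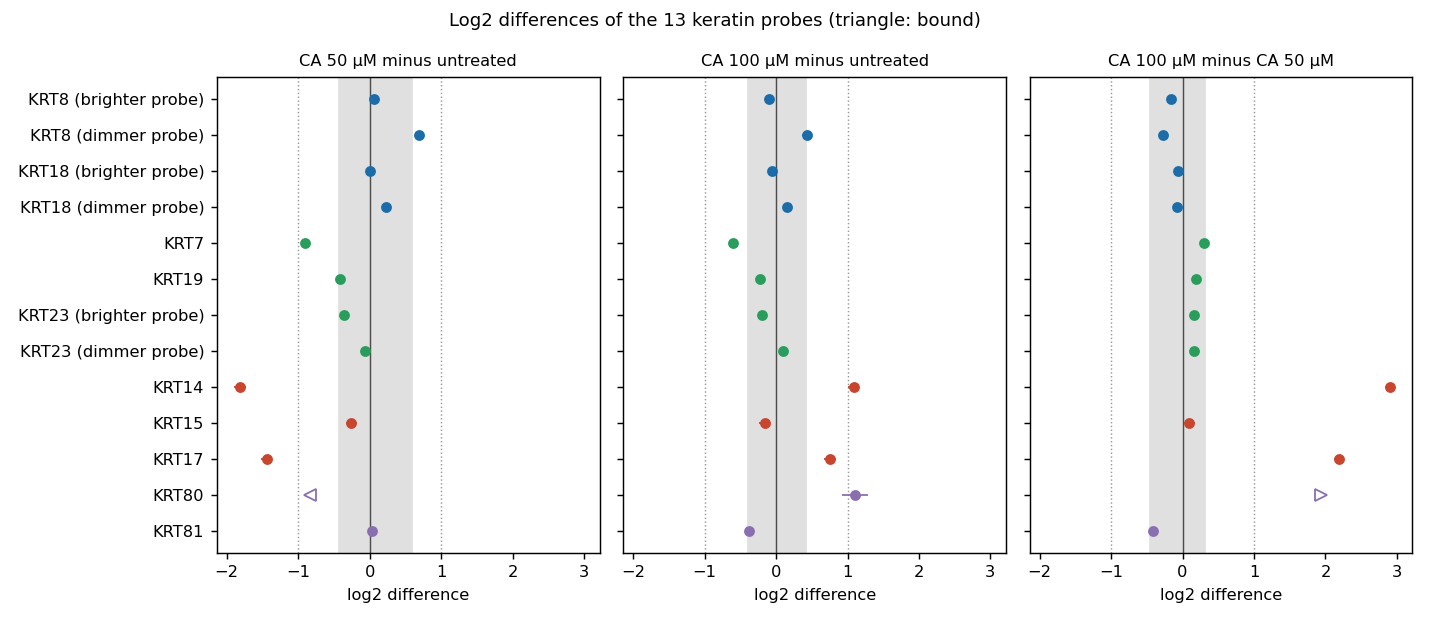
Log2 differences of the 13 keratin probes in the 3 comparisons, with horizontal bars for the median SD between repeated spots of probes of the same brightness (1 array per group, so the bars do not show spread between cultures), open triangles for bounds, a grey band from the 5th to the 95th percentile of all probes and dotted lines at 2-fold. KRT14 and KRT17 lay left of the band at CA50 (-1.81 and -1.44) and right of it at CA100 (1.09 and 0.75).

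KRT80, a type II keratin related to the hair keratins and made in many epithelia, had the dimmest probe of the 10 genes, with 19.6 intensity units without treatment and 49.8 at CA100. At CA50 its 10.8 intensity units were not well above background, where the lowest probe well above it had 12.5. KRT80 was thus at least 1.78-fold lower at CA50 than without treatment, 2.16-fold higher at CA100 (1.11), and at least 3.84-fold higher at CA100 than at CA50. Dim probes printed 10 times had a median SD of 0.18 between spots. With normexp background correction, which adds an offset of 50 to every spot, the CA100 difference was 0.27.

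KRT81, a type II hair keratin that is also found in carcinoma cells, had 10667 intensity units without treatment, 12479 at CA50 and 9693 at CA100. Its log2 difference was 0.04 at CA50 and -0.38 at CA100, and between the doses it was -0.41. KRT81 and KRT80 therefore differed in direction at CA100. At CA100 against untreated, 1231 of 22267 probes were at least as low as KRT81, and between the doses 1448 of 22453 were. Among probes near the level of KRT81, the 1st percentile was -0.38 at CA100 against untreated and -0.43 between the doses. The hair keratins KRT81, KRT83 and KRT86 are close paralogs, and which of their transcripts a probe bound was not tested.

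Hepatocyte KRT8 and KRT18 were set against the 6 progenitor and basal keratins by subtracting the mean log2 difference of KRT7, KRT14, KRT15, KRT17, KRT19 and KRT23 from that of KRT8 and KRT18, on the brightest probe of each gene. The value was 0.90 at CA50, so KRT8 and KRT18 were relatively higher there. At CA100 it was -0.19, and between the doses it was -1.09. At CA50 all 6 progenitor and basal genes had a negative difference on their brightest probe, whereas at CA100 KRT14 and KRT17 were positive and the other 4 negative. KRT14 and KRT17 had the largest differences of the 6 in every comparison, so they weighed most in these means. At CA100 the other 4 lay between -0.61 and -0.16, below KRT8 (-0.10) and KRT18 (-0.06). The negative contrast there therefore came from KRT14 and KRT17, and the contrast without them was not computed. Of all probes, 48.2% had a positive difference at CA50 and 45.2% at CA100. The CA100 value had the other sign with normexp background correction (0.15) and without the spots with a background outlier flag (0.08).

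**Figure D3:**
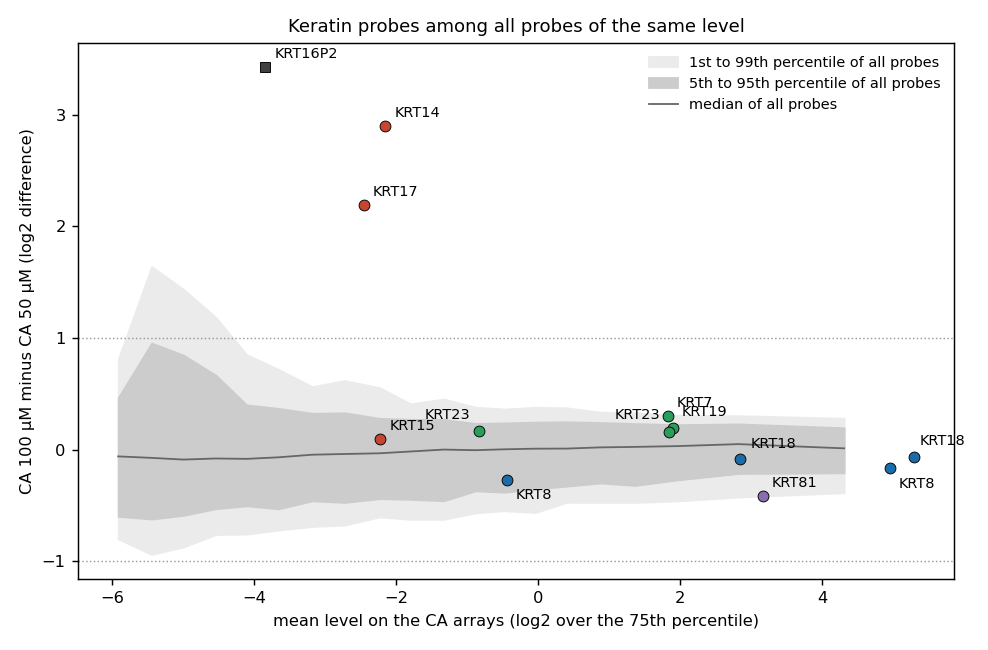
Log2 difference of CA100 minus CA50 (vertical axis) against the mean level on these arrays (horizontal axis, log2 over the 75th percentile), with circles for the keratin probes measured on both arrays, a square for the pseudogene KRT16P2 and grey bands for the percentiles of all probes of like level. KRT14 (2.90) and KRT17 (2.19) lay far above the 99th percentile at their level, and the other keratin probes lay between -0.41 and 0.30.

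Type I keratin genes form a cluster on chromosome 17, where KRT15, KRT19, KRT9, KRT14, KRT16 and KRT17 follow each other in this order, and KRT8 and KRT18 are neighbours in the type II cluster of chromosome 12. KRT9, between KRT19 and KRT14, had 21.3, 41.9 and 33.3 intensity units and a log2 difference of 0.78 at CA50, opposite to that of KRT14. KRT16, between KRT14 and KRT17, was well above background at CA100 alone, at 19.4 intensity units, which is at least 1.498-fold higher than at CA50 and at least 1.35-fold higher than without treatment. KRT5, the usual type II partner of KRT14, gave no spot well above background among the 3 arrays, and the same held for KRT6A and KRT6B, the usual partners of KRT16 and KRT17.

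The pseudogenes KRT16P2, KRT42P and KRT17P5 lie on chromosome 17. In annotation order KRT42P follows KRT17, whereas KRT16P2 and KRT17P5 come before KRT222, the first protein-coding keratin gene there. These pseudogenes were looked up after the values of KRT14 and KRT17 had been seen. The probe of KRT16P2 had 88.8, 25.6 and 285 intensity units on the untreated, CA50 and CA100 arrays. Its log2 differences were -1.98 at CA50, 1.45 at CA100 and 3.43 between the doses, and 1 probe was higher between the doses. KRT42P had 1 probe at 23.3, 8.44 (not well above background) and 98.7 intensity units, which is at least 7.61-fold higher at CA100 than at CA50. Its other probe stayed at 24.5, 27.9 and 24.6. KRT17P5 did not follow this order, since of its 3 probes 1 was well above background at CA50 alone (16.4 intensity units, at least 1.14-fold lower at CA100) and the others on no array. Whether the probes of KRT14, KRT17, KRT16P2 and KRT42P bind transcripts of each other was not tested, so their values may not be separate observations. The counts, medians and contrast above enter KRT14 and KRT17 as separate genes and make no allowance for this.

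**Figure D4:**
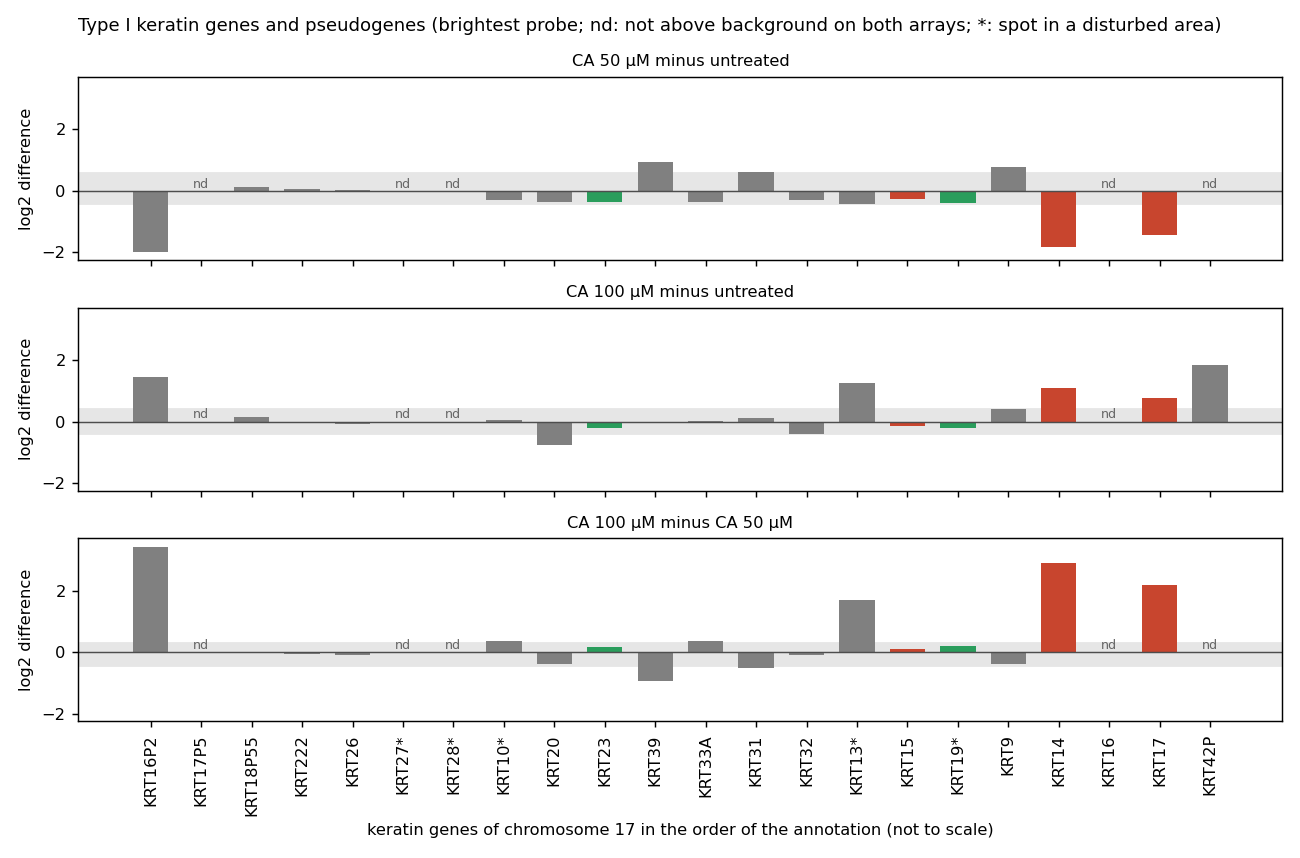
Log2 differences in the 3 comparisons for keratin genes and pseudogenes of chromosome 17 with a probe well above background on at least 1 array, in annotation order, with the 5th to 95th percentile of all probes as a grey band (brightest probe of each gene, 1 array per group, nd where a probe was not above background on both arrays, asterisk where a spot lay in a disturbed area). KRT14 and KRT17 stood out to both sides (-1.81 and -1.44, then 1.09 and 0.75), and the pseudogene KRT16P2 lay further out (-1.98, then 1.45). KRT9, beside KRT14, lay above the band at CA50 (0.78), and KRT15 and KRT19 lay within it.

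Beside the 10 genes, 45 further type I and type II keratin genes were listed, of which 43 had a probe. At CA50, 18 of their probes were compared, with a median log2 difference of 0.04, 12 above and 6 below 0 and 0 beyond 2-fold. Of all probes, 48.2% were above 0 there, with a median of -0.01. At CA100, 17 probes had a median of 0.02, and 1 was at least 2-fold higher, KRT13, a keratin of non-keratinising stratified epithelium, with 16.5, 14.0 and 46.5 intensity units and differences of -0.43 and 1.26. Its CA100 spot lay in the bright band, and so did that of KRT10, the suprabasal type I keratin, which had 12281, 11290.3 and 14892 intensity units and differences of -0.31 and 0.04.

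Of the further keratins well above background on all arrays, KRT83 (a hair keratin, 1609, 3115 and 2402 intensity units) had differences of 0.76 and 0.34, and KRT39 (183, 400 and 214 intensity units) had 0.94 and -0.01. KRT20, a keratin of intestinal epithelium, had 53.8, 47.3 and 37.5 intensity units and was lower at both doses, by -0.38 and -0.76. The hair, mucosal or epidermal keratins KRT31, KRT4, KRT76, KRT85 and KRT9 had differences between 0.36 and 0.78 at CA50 and between 0.05 and 0.41 at CA100. KRT32 and KRT33A had -0.30 and -0.35 at CA50, and KRT1, KRT3, KRT26, KRT73 and KRT222 lay between 0.01 and 0.11 there. Between the doses, 15 of 18 further keratin probes were lower at CA100, with a median of -0.19 beside 2.90 for KRT14 and 2.19 for KRT17. Of all probes, 47.8% were higher at CA100 than at CA50, with a median of -0.01. KRT27, KRT28 and KRT72 were well above background at CA100 alone, all from spots in the bright band.

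Other parts of the keratin network were described from listed genes. Other intermediate filaments (vimentin, lamins, nestin and their relatives) gave 15 probes with medians of 0.04 at CA50 and -0.09 at CA100, and 0 beyond 2-fold. Desmosome and plakin genes, which anchor keratin at the cell border, gave 25 probes with a median of 0.08 at CA50 and 24 with -0.05 at CA100, and 1 probe was at least 2-fold lower. That probe, of the plakin MACF1, had 34.4, 19.6 and 18.3 intensity units and differences of -1.01 and -1.15, while the brighter MACF1 probe (3776, 3767 and 4251) had -0.19 and -0.07. Transcription factors of keratin genes gave 13 probes with medians of -0.00067 and -0.04 and 0 beyond 2-fold, and among them TP63, the master factor of basal epithelium, was not well above background on any array. Keratin-bound proteins gave 21 probes with medians of 0.05 and 0.00, of which 1 was at least 2-fold higher at CA50, that of the adaptor YWHAE (581, 1925 and 998 intensity units, differences of 1.54 and 0.54).

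Markers of other cell types that a culture could hold were summed as levels over the 75th percentile of each array. Basal epithelium markers were well above background for 5 of 7 genes on every array, KRT5 and TP63 being the exceptions, and their summed level was 2.64, 1.79 and 2.25 without treatment, at CA50 and at CA100. Their 6 probes compared had a median of -0.65 at CA50 and -0.18 at CA100, with 0 beyond 2-fold. Bright genes of the list were ITGB4 (672, 425 and 587 intensity units), an integrin of hemidesmosomes, and DSG3 (586, 617 and 696), a desmosomal cadherin. All 6 probes were below 0 at CA50, from -0.85 to -0.02, and 3 of 6 were above 0 at CA100. Of all probes, 48.2% were above 0 at CA50 and 45.2% at CA100. The median of this list was below 0 at CA50, as were KRT14 and KRT17. At CA100 it was below 0 while KRT14 and KRT17 were above. Between the doses, all 6 probes of the list were higher at CA100, by 0.13 to 0.67, with a median of 0.32. KRT14 (2.90) and KRT17 (2.19) were also higher there. Of all probes, 47.8% were higher at CA100 than at CA50, with a median of -0.01. The part of the list in their values was not tested.

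Biliary and progenitor markers were well above background for all 7 genes, with a summed level of 103, 88.1 and 89.9, and medians of -0.24 and 0.12. CD24, EPCAM and SOX9 were the brightest and had differences of -0.28, -0.24 and 0.36 at CA50.

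Hepatocyte markers were well above background for 12 or 13 of 14 genes, with a summed level of 347, 316 and 299 over the 13 genes measured on every array and a median of -0.12 at both doses. ALB, SERPINA1 and TTR, all secreted liver proteins, were the brightest and had differences of -0.15, 0.08 and -0.47 at CA50, and APOA1 had 0.16 on its brighter probe and 0.67 on the other. AFP, GPC3 and DLK1, the fetal and hepatoma markers, had a summed level of 145, 127 and 117 and medians of 0.01 and -0.16. Fibroblast and stellate markers were well above background for 5 or 6 of 7 genes and summed to 0.60, 0.60 and 0.66, with DCN not well above background on any of them and COL1A2, PDGFRB and LUM the brightest. COL1A1 was well above background at CA100 alone, from a spot in the bright band (51.7 intensity units, at least 3.59-fold higher than untreated). Endothelial markers (PECAM1, VWF and CDH5, but not KDR, so 3 of 4) summed to 0.75, 0.90 and 0.84. Leukocyte markers (4 of 4, with CD68, PTPRC and CD3E the brightest) summed to 0.73, 0.86 and 0.65. No other probe of these 3 lists was beyond 2-fold, and their part in the keratin values was not tested.

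**Figure D5:**
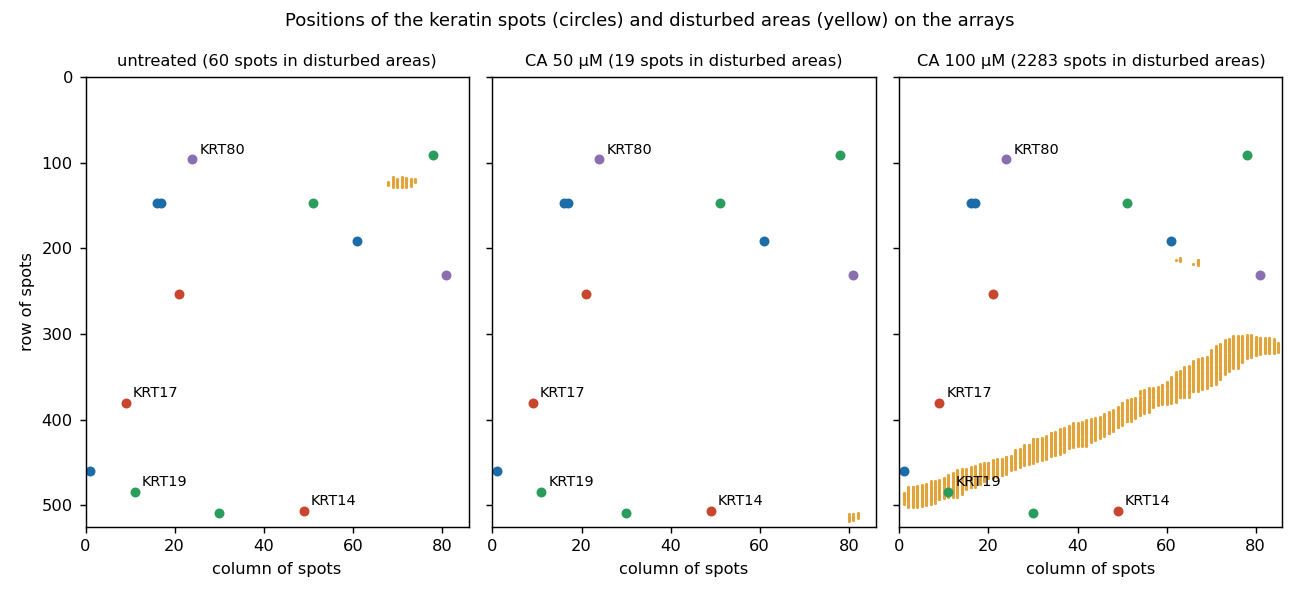
Position of the keratin spots (circles, rows and columns of spots on the array) and of spots in disturbed areas (yellow) on each of the 3 arrays. The CA100 array holds a diagonal band and a small patch (2283 spots together, against 60 and 19), and the band covers the spot of KRT19 and none of KRT14, KRT17 or KRT80.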

How the data were processed

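Total RNA of Huh7 cells (untreated, CA 50 μM or CA 100 μM for 24 h) was measured on 1 one-colour array per group. The authors extracted spots with Agilent Feature Extraction 11.0.1.1, which gave the deposited background-corrected intensity values, not scaled between arrays. The authors also deposited a table of log2 values, whose columns share a median of 6.22 and follow the log2 intensities with correlations of at least 0.99995. How that table was made is not given in the sources used here, and it was an alternative only. The genome build was not used.

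Main values were log2 of the processed intensity minus the 75th percentile of the array, over gene spots without outlier flags (429, 569 and 596 left out). A probe counted as well above background where at least 50% of its spots were, and differences were formed where both arrays passed. Otherwise a bound was given against the higher of the own signal and the lowest probe above background. Probes were named through RefSeq accessions (25764 of 34110). A disturbed area was a window (17 rows, 7 columns) with at least 5 spots, and at least 25% of dim spots, at least 4-fold brighter on 1 array. The brightest probe stood for a gene.

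The members and gene lists were chosen with earlier results of these data known. Genes named were all 10 members, list genes beyond 2-fold, further keratins above background on every array, the brightest 3 of each marker list, and ALB, APOA1, AFP and HNF4A (some are not reported here). With 1 array per group no test was made, and no replicate could be left out. Alternatives were quantile, cyclic loess and median scaling, normexp (offset 50, on median intensities, since the files hold no mean), the deposited log2 values, other filters, leaving out saturated, disturbed or background-flagged spots, the mean over probes, and 1.5-fold. The steps were tested on simulated data. Python 3.11.15, numpy 2.4.6, pandas 2.3.3, R 4.3.3 and limma 3.58.1 were used. No sequence is printed, since no probe or protein sequence was used here.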

Additional observations from a re-analysis of the deposited data

Results flagged for a closer look

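KRT14 and KRT17 differed from untreated in opposite directions at the 2 doses of CA. KRT14 had log2 differences of -1.81 at CA50 and 1.09 at CA100, and KRT17 had -1.44 and 0.75. The difference between the doses was not tested, since each dose had 1 array, and whether their probes bind other keratin transcripts was not tested. Their values at CA50 and the gap between the doses rest on the same CA50 array.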

How the results depend on the processing

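KRT14, KRT17, KRT7 and KRT15 kept the sign of each difference under all 10 alternatives, and KRT19 under all that measured it. KRT14 ranged from -1.89 to -1.33 at CA50 and from 0.92 to 1.09 at CA100, and KRT17 from -1.51 to -1.04 and from 0.66 to 0.75, in each case with normexp nearest to 0. The bright probe of KRT18 changed sign under 1 or more alternatives at both doses, and that of KRT8 did at CA100 alone. KRT81 and the dimmer probe of KRT23 did so at CA50. Where no cause is stated for a value below, the cause was not tested.

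With quantile normalization the median of KRT8 and KRT18 was 0.17 at CA50 and 0.085 at CA100, that of KRT14, KRT15 and KRT17 was -1.51 at CA50 and that of KRT80 and KRT81 was 0.13. The contrast of KRT8 and KRT18 with the progenitor and basal keratins was then 1.05 at CA50 and -0.034 at CA100. The deposited log2 table, scaled otherwise, gave 0.18, 0.084, -1.51, 0.14, 1.05 and -0.035 for the same results. Cyclic loess gave 0.20 and 0.048 for KRT8 and KRT18, 0.14 for KRT80 and KRT81 at CA50, -0.35 for KRT7, KRT19 and KRT23 at CA50, and contrasts of 1.06 and -0.080.

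Normexp ran without spots with a background outlier flag, so the dimmer probe stood for KRT8 in the comparisons with untreated. KRT8 and KRT18 then had 0.41 at CA50 and 0.22 at CA100, KRT18 minus KRT8 was -0.61, -0.49 and, between the doses, 0.000677, and the contrast was 1.09, 0.15 and -0.88. KRT14, KRT15 and KRT17 had -1.04, 0.66 and 1.70, and KRT7, KRT19 and KRT23 had -0.30 at CA50 and 0.10 between the doses. KRT80 and KRT81 had -0.042 at CA100, and 0 keratin probes were at least 2-fold higher there. Leaving out those spots alone gave 0.35 and 0.18 for KRT8 and KRT18, -0.69 and -0.49 for KRT18 minus KRT8, and contrasts of 1.22 and 0.076. The mean over probes gave 0.25 and 0.10, -0.26 and -0.12, and 1.09 and -0.031 for the same results.

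A filter on 1 array, or no filter, added the KRT80 value at CA50, and the median of KRT80 and KRT81 became -0.50 at CA50 and 0.87 between the doses. Without disturbed areas KRT19 was lost at CA100, so that KRT7 and KRT23 had a median of -0.40 there, and the contrast was -0.26 at CA100 and -1.25 between the doses. At 1.5-fold, 1 keratin probe counted as higher at CA50 and 1 as lower at CA100. The other 213 recomputed counts and medians stayed within the spread between repeated spots or within 1.5 times the count. With 1 array per group and single spots, the dim probe of KRT80 is the value that signal over background limits most. No paired analysis was possible because each group has 1 array and no result comes from a test.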

Other observations

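Between the doses, 153 probes were at least 2-fold higher at CA100 than at CA50, of which 102 lay in disturbed areas and 51 outside them. KRT14 and KRT17 stood at places 6 and 14 of the 153. Of the genes between them or just above, named here after their values were seen, GABRP (a subunit of the GABA-A receptor) had 160.3, 75.4 and 439 intensity units on the untreated, CA50 and CA100 arrays. PFKP, the platelet form of phosphofructokinase, had 223, 81.3 and 454 on the probe between them and 247, 122 and 254 on another, which was lower by a log2 difference of -1.21 at CA50 and had 1.01 between the doses. CYP24A1, which inactivates vitamin D, had 50.4, 40.2 and 349, and the adaptor GRB7 had 122, 82.8 and 676. Against untreated, GABRP had log2 differences of -1.28 at CA50 and 1.21 at CA100, CYP24A1 had -0.52 and 2.55, and GRB7 had -0.75 and 2.23. The differences from CA50 all share the CA50 array.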
